A study of Mus musculus with 4 samples.

Results

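Alcohol dehydrogenases oxidise alcohols to aldehydes and aldehyde dehydrogenases oxidise aldehydes to acids. The liver transcripts of 10 such enzymes were compared between PA and WT mice, namely Adh1, Adh4, Adh5, Adh7, Aldh1a1, Aldh1a7, Aldh1b1, Aldh2, Aldh3a2 and Aldh9a1. They were taken by symbol from the 55487 genes of the count tables, and all 10 passed the filter on low counts, so that each was among the 14411 genes tested. The tissue was frozen liver from 4 mice, all FVB females fed standard chow and 11 weeks old. The 2 PA mice carried the genotype given as hypomorphic Pcca-/- (A138T), and the 2 mice set against them were WT. The protein made from Pcca is part of propionyl-CoA carboxylase, which clears propionyl-CoA in mitochondria. The labels do not say how the A138T allele is carried, and they name no batch. In RNA of whole tissue, fewer cells of a type and less RNA per cell cannot be told apart.

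In the liver, ethanol is oxidised to acetaldehyde mainly by the cytosolic class I enzyme Adh1, and acetaldehyde is oxidised to acetate mainly by Aldh2 in mitochondria. The other alcohol dehydrogenases differ in substrate. Adh4, the class II enzyme, acts on ethanol at high concentration, on retinol and on long-chain alcohols, Adh5, the class III enzyme, oxidises the glutathione adduct of formaldehyde and reduces S-nitrosoglutathione, and Adh7, the class IV enzyme, is best known as a retinol-oxidising enzyme of the stomach and upper gut epithelium. Aldh1a1 makes retinoic acid from retinaldehyde, and Aldh1a7 is its close copy in rodents. Aldh1b1 is a mitochondrial relative of Aldh2, Aldh3a2 oxidises long-chain fatty aldehydes in the endoplasmic reticulum, and Aldh9a1 takes part in carnitine synthesis and oxidises aminoaldehydes.

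The genes Adh7, Adh1, Adh4 and Adh5 lie in this order on the plus strand of chromosome 3, within 1 cluster, and 9 of the 10 enzymes had an upstream window in RefSeq (GRCm38.p6), with Aldh2 not among them. The windows of the 4 alcohol dehydrogenases are shown because Adh4 was the gene called and its 3 relatives were not. Each runs from 250 to 51 bases before the RefSeq start, on the plus strand, at chr3:138415247-138415446 for Adh4, chr3:138277335-138277534 for Adh1, chr3:138442843-138443042 for Adh5 and chr3:138217523-138217722 for Adh7. Both strands were searched for the TATA box TATAAA, the box named CCAAT, the GC box GGGCGG, the STAT5 site TTCNNNGAA and the nuclear receptor core motif AGGTCA, and capitals mark the matches.
Adh4: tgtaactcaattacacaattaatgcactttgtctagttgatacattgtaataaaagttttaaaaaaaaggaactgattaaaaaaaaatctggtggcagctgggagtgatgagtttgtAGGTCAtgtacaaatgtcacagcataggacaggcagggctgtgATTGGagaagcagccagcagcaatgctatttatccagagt
Adh1: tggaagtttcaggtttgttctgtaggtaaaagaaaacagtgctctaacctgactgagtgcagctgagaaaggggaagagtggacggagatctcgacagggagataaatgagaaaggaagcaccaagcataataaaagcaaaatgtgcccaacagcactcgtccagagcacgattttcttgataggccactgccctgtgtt
Adh5: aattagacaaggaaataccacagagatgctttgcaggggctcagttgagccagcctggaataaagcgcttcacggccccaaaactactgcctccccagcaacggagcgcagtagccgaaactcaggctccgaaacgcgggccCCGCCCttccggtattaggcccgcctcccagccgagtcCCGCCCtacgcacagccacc
Adh7: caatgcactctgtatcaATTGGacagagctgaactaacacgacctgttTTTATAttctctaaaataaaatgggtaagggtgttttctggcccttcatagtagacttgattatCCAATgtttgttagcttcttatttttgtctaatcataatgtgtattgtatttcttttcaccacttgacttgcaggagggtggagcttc
The Adh4 window had 37.5% GC and 0 CG dinucleotides, the Adh1 window 46% and 4, the Adh5 window 61% and 14, and the Adh7 window 36.5% and 1, against medians of 51.5% and 4 over all 32851 windows of this length. The Adh4 window held AGGTCA at -133 to -128, a motif found in 11.4% of all windows, and CCAAT, read as ATTGG, at -90 to -86, found in 28.4%. The Adh1 window matched none of the 5 motifs. It lies inside the annotated span of Adh1, 138260991 to 138290698, so bases before the annotated start were not searched. The Adh5 window held GGGCGG, read as CCGCCC, at -108 to -103 and at -70 to -65, a motif found in 24.6% of windows. The Adh7 window held TATAAA, read as TTTATA, at -202 to -197, found in 9.14% of windows, and CCAAT at -233 to -229 and -138 to -134. TTCNNNGAA, found in 5.76% of windows, was in none of the 4. No matches overlapped, and these matches describe letters only. Bases nearer to the start than 51 were not searched, so a TATA box or other motif there would be missed.

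Gene counts summed to 25575016 to 30110400 per library. At these totals, before further scaling, 3 counts come to 0.0996 to 0.117 CPM, the count scaled to the size of its library. Pcca, the targeted gene, was at 34.2 and 47.4 CPM in the PA livers, against 60.3 and 58.9 CPM in the WT livers (log2 fold change -0.55, standard error or SE 0.22, edgeR adjusted p = 0.398), so it was lower in both PA livers in CPM without passing the test. In TPM, which is scaled for transcript length and library size, it was at 20.9 and 37.4 in PA, against 34.4 and 35.2 in WT, and the groups overlapped. Its partner subunit Pccb was at 149 and 139 CPM in PA, against 136 and 132 CPM in WT (edgeR adjusted p = 0.896). Summed hepatocyte markers, 9 genes, ranged over 145397 to 176818 CPM in PA and 156803 to 175382 CPM in WT. Albumin, Alb, carries this sum, at 120638 and 147200 CPM in PA and 130577 and 149441 CPM in WT. Of the 9 genes, 6 had higher and 3 lower values in PA. Of 6 stomach and gut epithelium markers, 4 were at 0 in all libraries and the sum was 0.0393 to 0.135 CPM in PA and 0.0978 to 0.118 CPM in WT. Other sums differed more, with 6 macrophage markers at 248.9 and 346 CPM in PA and 565 and 487 CPM in WT, and 5 red blood cell markers at 11.9 and 16.8 CPM in PA and 88.5 and 47.5 CPM in WT. B and T cell markers summed to 3.14 and 6.02 CPM in PA and 14.7 and 12.3 CPM in WT. Endothelial markers summed to 211 and 214 CPM in PA and 279 and 257 CPM in WT. Of these, Clec4g and Fcgr2b were lower in both PA livers, while Stab2, Lyve1, Pecam1 and Kdr overlapped between groups. Cholangiocyte markers summed to 29.8 and 32.6 CPM in PA and 34.3 and 48.3 CPM in WT, although 4 of 5 tested had higher values in PA. Pancreas markers summed to 11.4 and 7.74 CPM in PA and 29.2 and 16.8 CPM in WT. Almost all of that sum was Cela1, with 4 of the 6 genes at 0 in all libraries. Transcripts encoded by mitochondrial DNA took 13.6 and 8.98% of counts in PA and 6.90 and 7.38% in WT.

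Adh4 was lower in both PA livers than in either WT liver, and it was the only 1 of the 10 enzymes that passed the test. It was read at 79.4 and 68.5 CPM in the PA livers, against 271 and 193 CPM in the WT livers (2022 and 2037 counts, against 8316 and 4911). The means were 74.0 ± 7.66 CPM in PA and 232 ± 55.3 CPM in WT (SD, n = 2 each), 3.14-fold lower in PA. On the log2 scale PA minus WT was -1.65, SE 0.26, and the quasi-likelihood test of edgeR gave an adjusted p of 0.047. Over all genes tested, 0.812% were called, with 0.548% lower and 0.264% higher in PA. The call lay close to the threshold of 0.05, and it was lost when a mean of at least 1 CPM was required (adjusted p = 0.053 with edgeR) and with RSEM expected counts (0.0514). Without WT replicate 1, the library with the highest Adh4, the log2 fold change was -1.39 and the edgeR adjusted p was 0.150, with the remaining WT mouse assumed to vary like the PA mice. Summed markers of macrophages, red blood cells and B and T cells were also lower in both PA livers than in either WT liver. So were those of endothelial cells, cholangiocytes and pancreas, sums that rested on few genes. The part of these cell types in the Adh4 value was not tested.

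The other 9 enzymes gave no call with edgeR (0 at an unadjusted p under 0.05, and 0 with DESeq2 or limma-voom). Over all genes tested, 11.8% were at an unadjusted p under 0.05, 3.07% were called by DESeq2 and 0.604% by limma-voom. Their log2 fold changes ran over -0.14 to 0.77 with a median of 0.04, against a median of 0.00 over all genes tested. In 5 of the 10 enzymes the groups overlapped, in 3 both PA livers were above both WT livers, and in 2 both were below. Over all genes tested, the groups failed to overlap in 43.2%, with PA higher in 21.3% and lower in 21.9%, so this split is close to that of all genes. A gene that was not called with 2 mice per group is not shown to be unchanged.

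**Figure D1:**
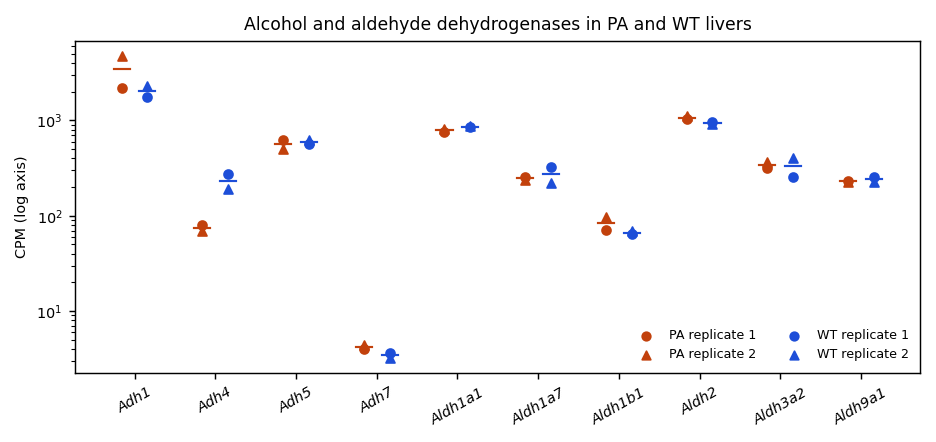
CPM of the 10 enzymes in each liver, on a log axis, with PA left of WT. Each point is 1 mouse and each bar the mean of its group. Adh4 stands at 79.4 and 68.5 CPM in PA and at 271 and 193 CPM in WT, while Adh1 spans 2169 to 4762 CPM within PA.

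Adh1, the class I ethanol-oxidising enzyme, was at 2169 and 4762 CPM in PA, against 1763 and 2311 CPM in WT. PA replicate 2 was the highest of the 4 libraries, PA replicate 1 lay between the WT livers, and the groups overlapped. Its log2 fold change of 0.77 had an SE of 0.41 (edgeR adjusted p = 0.538). The value moved with the PA library left out, to 1.23 without PA replicate 1 (edgeR adjusted p = 0.0388) and 0.09 without PA replicate 2 (edgeR adjusted p = 0.883). Each of these fits has 1 PA mouse, assumed to vary like the WT mice. Adh5, the formaldehyde-oxidising enzyme encoded next to Adh4, was at 628 and 498 CPM in PA, against 569 and 620.2 CPM in WT. Its groups overlapped, with PA replicates at the top and the bottom of the range (log2 fold change -0.08, SE 0.25, edgeR adjusted p = 0.944). Adh7, the class IV enzyme, was at 4.04 and 4.37 CPM in PA, against 3.65 and 3.26 CPM in WT. Both PA livers were slightly above both WT livers on the strand of the gene (log2 fold change 0.28, SE 0.25, edgeR adjusted p = 0.730), and this direction turned with the way strand was handled, as given below.

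The ratio of Adh4 to each paralog within a library does not depend on library scaling. The log2 ratio of Adh4 to Adh1 counts was -4.77 and -6.12 in PA, against -2.70 and -3.58 in WT, a PA minus WT difference of -2.30 (pooled SD 0.80). The log2 ratio to Adh5 was -2.98 and -2.86 in PA, against -1.07 and -1.69 in WT, a difference of -1.55 (pooled SD 0.31). The log2 ratio to Adh7 was 4.30 and 3.97 in PA, against 6.21 and 5.89 in WT, a difference of -1.92 (pooled SD 0.23). That last difference depended on the Adh7 count, and was -0.74 with unstranded counts, which include antisense reads, and -1.30 with RSEM expected counts. All 3 ratios were lower in both PA livers than in either WT liver, by 4.94-fold, 2.92-fold and 3.78-fold for Adh1, Adh5 and Adh7. The 3 ratios share the Adh4 count, so they are not separate evidence that Adh4 was lower. Each of the 3 comparisons had an exact two-sided permutation p of 0.333, the smallest that 2 against 2 libraries can give, so none could pass 0.05. The coding sequence of Adh4 was 67.4% identical to that of Adh1, 66.3% to that of Adh5 and 66.0% to that of Adh7, and its transcripts shared 0 stretches of 50 bases with theirs.

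**Figure D2:**
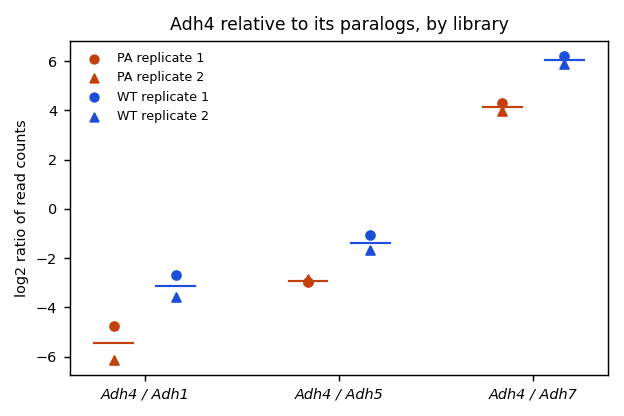
Log2 ratio of Adh4 counts to the counts of Adh1, Adh5 and Adh7 within each library, with PA left of WT, 1 point per mouse and bars for group means. For every paralog both PA points lie below both WT points, by -2.30, -1.55 and -1.92 on average, and the same Adh4 count enters each ratio. Counts are those on the strand of each gene. Unstranded counts, which include antisense reads, give -0.74 for Adh7.

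The cluster spans 237.739 kb of chromosome 3 (GRCm38, 138217760 to 138455499) and holds 10 annotated genes, 7 of them tested. Adh4 (138415466 to 138430892) was the only called gene among them. Adh5 (138443093 to 138455499) follows it downstream, and the pseudogene Adh6-ps1 (138374121 to 138395002) precedes it. Adh6-ps1 was at 16.6 and 11.9 CPM in PA, against 30.1 and 14.9 CPM in WT, with PA replicate 1 above the lower WT liver (log2 fold change -0.66, edgeR adjusted p = 0.535). Adh6a was at 0 counts in all 4 libraries, where 3 counts would be 0.0996 to 0.117 CPM, and Adh6b was at 0.0393 and 0.0673 CPM in PA and 0.0652 and 0.0393 CPM in WT. The non-coding 0610031O16Rik (138210716 to 138240405, minus strand), which lies antisense over Adh7 (138217760 to 138233382), was at 11.7 and 12.2 CPM in PA, against 21.9 and 24.5 CPM in WT. Both PA livers were below both WT livers, and the log2 fold change of -0.96 did not pass the edgeR test (adjusted p = 0.103), although DESeq2 called it (adjusted p = 0.0215). The nearest tested protein-coding genes outside the cluster were Mttp, which loads lipid onto lipoproteins, and Trmt10a, a tRNA methyltransferase, upstream, and Metap1, a methionine aminopeptidase, and Eif4e, a cap-binding factor, downstream. Their log2 fold changes of 0.05, -0.06, -0.03 and 0.22 were not called, and their groups overlapped.

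**Figure D3:**
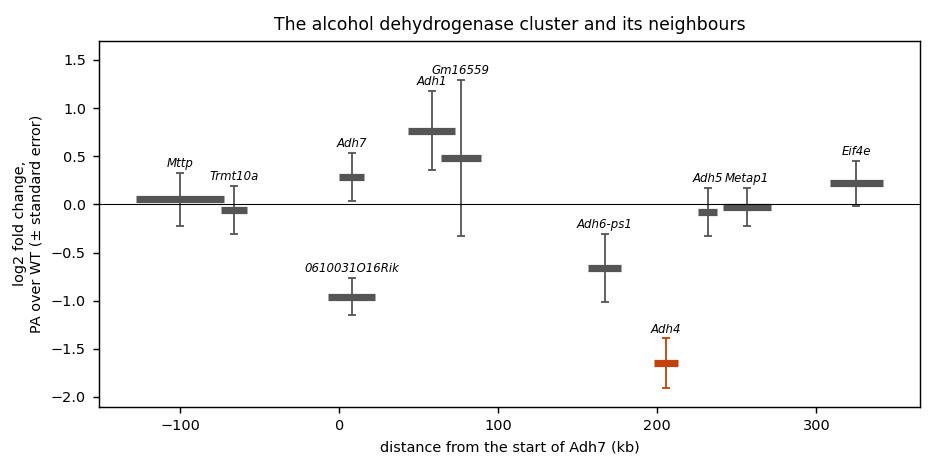
Log2 fold change, PA over WT, of the tested genes of the alcohol dehydrogenase cluster and its neighbours, placed by distance in kb from the start of Adh7. Thick horizontal bars span each gene, thin vertical bars are standard errors, and orange marks a gene called by edgeR. Adh4 at -1.65 is the only called gene, while Adh5 next to it is at -0.08 and Adh6-ps1 on its other side at -0.66.

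Reads on the strand opposite to Adh7 outnumbered its own in every library. The antisense strand of Adh7 held 231 and 433 reads in PA, against 779 and 690 in WT, while the strand of the gene held 103 and 130 in PA, against 112 and 83 in WT. Counted without regard to strand, Adh7 had 291 and 484 reads in PA, against 786 and 635 in WT, and its log2 fold change was -0.86 instead of 0.28. With RSEM expected counts of 122 and 186 in PA, against 226 and 168 in WT, it was -0.30. Reads of the antisense strand, where 0610031O16Rik lies, are part of the unstranded count, so -0.86 is not a value of Adh7 alone. On its own strand Adh7 was not called (edgeR adjusted p = 0.730), and no direction is given for it. The antisense strand of Adh4 held 1 and 0 reads in PA and 0 and 0 in WT, so the Adh4 count did not depend on strand. Without regard to strand, Adh1, which the antisense gene Gm16559 overlaps, was counted at 76.9 and 76.6% of its stranded count in PA and 76.7 and 76.4% in WT, a like share in all 4 libraries.

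**Figure D4:**
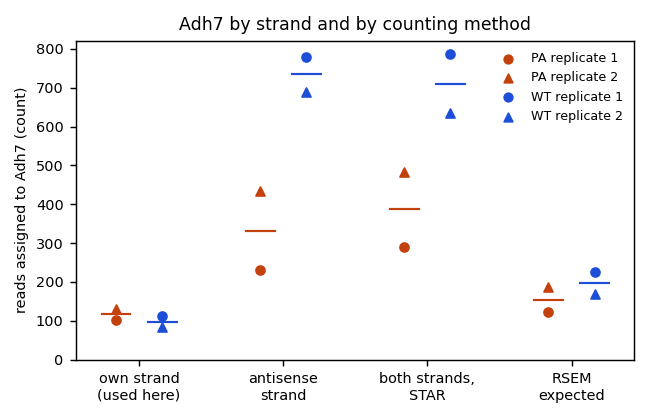
Read counts over Adh7 on its own strand, on the antisense strand, without regard to strand and as RSEM expected counts, with PA left of WT, 1 point per mouse and bars for group means. The antisense strand holds 231 and 433 reads in PA and 779 and 690 in WT, and the strand of the gene 83 to 130 reads in all 4 libraries.

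Aldh2, the mitochondrial enzyme that clears acetaldehyde, was at 1038 and 1102 CPM in PA, against 961 and 918 CPM in WT. Both PA livers were above both WT livers by little (log2 fold change 0.19, SE 0.24, edgeR adjusted p = 0.825). Its relative Aldh1b1 (chromosome 4, 45799022 to 45804604) was at 71.3 and 97.2 CPM in PA, against 64.4 and 68.5 CPM in WT. Again both PA livers were above both WT livers, and PA replicate 2 stood apart (log2 fold change 0.34, SE 0.23, edgeR adjusted p = 0.622). In TPM the groups overlapped for Aldh2 and for Aldh1b1, the latter at 29.7 and 51.6 in PA, against 36.4 and 36.0 in WT. Aldh1b1 is also one of 14 periportal markers, whose sum was 16080.4 and 16692 CPM in PA, against 12679 and 10986 CPM in WT, with 0 of the 14 called by edgeR (6 at an unadjusted p under 0.05, 4 called by DESeq2 and 0 by limma-voom, against 11.8, 3.07 and 0.604% of all genes). Of the 14, 10 had higher and 4 lower values in PA. The urea cycle enzyme Cps1 alone was at 4134 and 6703 CPM in PA, against 2597 and 2547 CPM in WT, so abundant genes carry the sum, and Igf1 and Pigr were lower in both PA livers. The sum of 14 pericentral markers overlapped, at 7785 and 10039 CPM in PA and 9148 and 10838 CPM in WT, and the part of such zonal differences in the enzymes' values was not tested.

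Aldh1a1, which makes retinoic acid, was at 758 and 818 CPM in PA, against 845 and 878 CPM in WT. Both PA livers were below both WT livers by a small margin (log2 fold change -0.13, SE 0.24, edgeR adjusted p = 0.893). Its neighbour on chromosome 19, Aldh1a7, was at 254 and 239 CPM in PA, against 324 and 219 CPM in WT. The PA livers lay between the WT livers (log2 fold change -0.14, SE 0.26, edgeR adjusted p = 0.893). The coding sequences of these genes were 92.0% identical, and 3.06% of the 50-base stretches of Aldh1a1 transcripts and 7.49% of those of Aldh1a7 were shared. A small part of their reads may therefore lack a single alignment and be left out of their counts. Aldh3a2, the fatty aldehyde dehydrogenase, was at 314 and 363 CPM in PA, against 254 and 407 CPM in WT, again inside the WT range (log2 fold change 0.04, edgeR adjusted p = 0.979). Aldh9a1, of carnitine synthesis, was at 230.3 and 228 CPM in PA, against 258 and 228 CPM in WT, with 3 of 4 livers nearly equal (log2 fold change -0.08, edgeR adjusted p = 0.932).

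**Figure D5:**
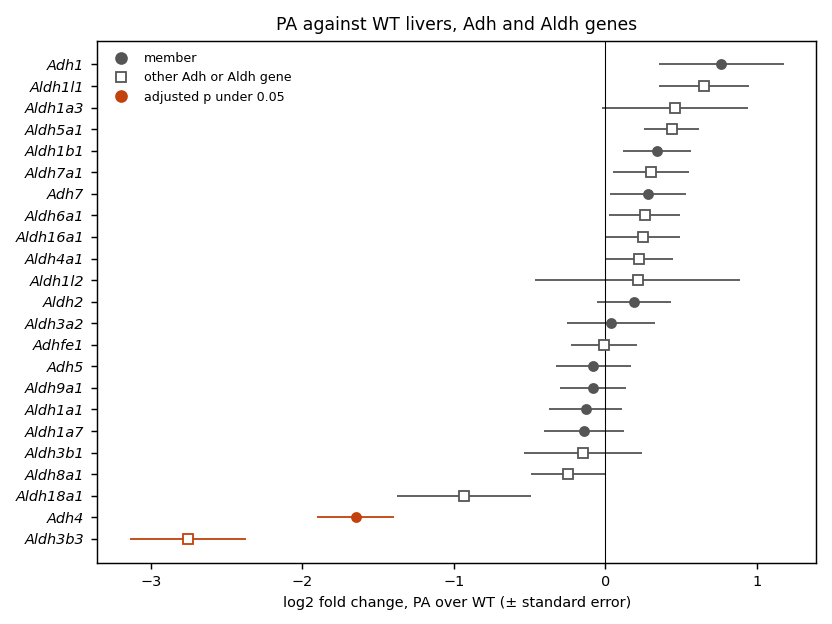
Log2 fold change, PA over WT, of the 10 enzymes and of the other tested alcohol and aldehyde dehydrogenase genes, with standard errors as bars. Filled circles are the 10 enzymes, open squares the others, and orange marks calls by edgeR. Adh4 at -1.65 and Aldh3b3 at -2.76 are the called genes.

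Levels of different genes were compared in TPM. Adh1 was the most abundant of the 10 in every library, at 1373 and 3768 TPM in PA and 1490.4 and 1838 TPM in WT, and Aldh2 was second by group mean at 847 and 1129 TPM in PA and 1067 and 1015 TPM in WT. Aldh1a1, at 329.8 and 448 TPM in PA and 493 and 485 TPM in WT, and Adh5, at 400.4 and 394 TPM in PA and 483 and 504 TPM in WT, overlapped each other. Adh4 had rank 8 by group mean in PA, at 58.1 and 62.7 TPM, and rank 5 in WT, at 288 and 192 TPM. In PA its values did not overlap those of the next genes in order, Aldh9a1 at 74.2 and 92.3 TPM above it and Aldh1b1 at 29.7 and 51.6 TPM below it. In WT the next gene below was Aldh1a7 at 187 and 119.6 TPM, also without overlap. Aldh1a7 and Aldh3a2 overlapped each other in both groups. Adh7 was the lowest in both groups, at 3.69 and 6.22 TPM in PA and 7.55 and 5.31 TPM in WT. Of the summed TPM of the 4 alcohol dehydrogenases, Adh4 made up 3.17 and 1.48% in PA, against 12.7 and 7.57% in WT, and Adh1 made up 74.8 and 89.1% in PA, against 65.7 and 72.4% in WT. The Adh4 shares did not overlap and the Adh1 shares did not either, but a share of Adh4 moves with Adh1, which was itself highest in PA replicate 2. Of the summed TPM of the 6 aldehyde dehydrogenases, Aldh2 made up 56.7 and 56.6% in PA, against 53.3 and 53.1% in WT.

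In TPM, Adh4 was 3.97-fold lower in PA. All 10 enzymes had a lower PA over WT fold in TPM than in CPM, so the shift was not particular to Adh4. For 3 of them, Adh7, Aldh2 and Aldh3a2, the PA mean was above the WT mean in CPM and below it in TPM. For Adh7 the RSEM counts, 122 and 186 in PA and 226 and 168 in WT, exceeded its own-strand counts in every library. The part of antisense reads in the TPM of Adh7 was not tested. The mean transcript length that RSEM assigned to Adh4, which has annotated transcripts of 1314, 695 and 257 bases, was 1224 and 1234 bases in PA, against 1140 and 1150.2 bases in WT. It was longer in both PA livers by 83.9 bases or 7.32%. Among 11872 genes with more than 1 transcript, the assigned length was longer in both PA livers than in either WT liver in 20.9%, and in 9.93% by at least as much as for Adh4.

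Outside the 10 enzymes, 3 other alcohol dehydrogenase genes and 15 other aldehyde dehydrogenase genes were listed. Adhfe1, a mitochondrial hydroxyacid-oxoacid transhydrogenase, was the 1 tested gene of the first list, at 111 and 131 CPM in PA, against 115 and 129 CPM in WT, and the groups overlapped (log2 fold change -0.01, edgeR adjusted p = 0.994). Of 12 tested genes of the second list, 0 were higher and 1 was lower by the test, against 0.264 and 0.548% of all genes. Their median log2 fold change was 0.24, against 0.00 over all genes. The called gene was Aldh3b3, a membrane-bound relative of the fatty aldehyde dehydrogenases, at 0.824 and 1.14 CPM in PA, against 4.86 and 8.60 CPM in WT (21 and 34 counts, against 149 and 219). Both PA livers were below both WT livers, by -2.76 on the log2 fold change scale (SE 0.38, edgeR adjusted p = 0.0313). It was not called with limma-voom (adjusted p = 0.0588). Its coding sequence was 90.5% identical to that of its neighbour Aldh3b2, with 11.5% of its 50-base stretches shared. Reads from such stretches may lack a single alignment and be left out of its count. Aldh5a1, which clears succinic semialdehyde, had a log2 fold change of 0.44, and Aldh1l1, a folate enzyme, one of 0.65, with PA livers above WT livers in CPM in each. Aldh18a1, of proline synthesis, had one of -0.94, at 0.432 and 0.505 CPM in PA, against 0.717 and 1.10 CPM in WT (edgeR adjusted p = 0.416, 0.457 and 0.478 for the 3 genes in this order). In TPM the groups of Aldh1l1 overlapped, at 281 and 530 in PA, against 329 and 255 in WT.

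Of 4 tested genes of ethanol and acetate handling, 0 were called by edgeR, against 0.812% of all genes. At an unadjusted p under 0.05, by DESeq2 and by limma-voom the counts were 1, 0 and 0, against 11.8, 3.07 and 0.604%. The most different was Acss3, a mitochondrial acyl-CoA synthetase that acts on propionate, at 46.5 and 36.1 CPM in PA, against 71.7 and 76.7 CPM in WT (log2 fold change -0.84, edgeR adjusted p = 0.168). Cyp2e1, the ethanol-inducible cytochrome P450, had a log2 fold change of 0.24, and catalase, Cat, one of 0.01, both with overlapping groups. Acss2, the acetyl-CoA synthetase of the cytosol, was at 268 and 733 CPM in PA, against 306 and 335 CPM in WT, so that its log2 fold change of 0.64 rested on PA replicate 2 (edgeR adjusted p = 0.637).

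Of 28 tested genes of retinoid metabolism, 0 were called by edgeR (5 at an unadjusted p under 0.05, 1 by DESeq2 and 0 by limma-voom, against 11.8, 3.07 and 0.604% of all genes), 11 had higher and 17 lower values in PA, and the median log2 fold change was -0.10. Rdh9, a retinol dehydrogenase of the short-chain family, was at 46.4 and 37.5 CPM in PA, against 19.0 and 22.3 CPM in WT (log2 fold change 1.02, edgeR adjusted p = 0.105). Rdh16f2, of the same family and chromosomal region, was lower in both PA livers at 205 and 281 CPM, against 422 and 440.3 CPM in WT (log2 fold change -0.83, edgeR adjusted p = 0.258). The retinoic acid receptor Rara was at 8.68 and 8.24 CPM in PA, against 4.73 and 5.50 CPM in WT (log2 fold change 0.73, edgeR adjusted p = 0.261). Cyp26a1, which degrades retinoic acid and is induced by it, was at 4.59 and 2.66 CPM in PA, against 4.89 and 23.6 CPM in WT, so that its log2 fold change of -1.97 rested on WT replicate 2 (edgeR adjusted p = 0.309).

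Of 15 tested aldehyde reductases and oxidases, 0 were called by edgeR, against 0.812% of all genes. At an unadjusted p under 0.05, by DESeq2 and by limma-voom the counts were 4, 0 and 0, against 11.8, 3.07 and 0.604%. Cbr1, a carbonyl reductase, had a log2 fold change of 0.66, Akr1b7 one of 0.88, Akr1c6 one of -0.70 and Akr7a5 one of 0.55, with groups that did not overlap in each. These were the genes of smallest p in that list, and the groups failed to overlap in 43.2% of all genes tested. Of 5 tested genes of formaldehyde and glutathione handling, 0 were called by edgeR, against 0.812% of all genes. At an unadjusted p under 0.05, by DESeq2 and by limma-voom the counts were 1, 0 and 0, against 11.8, 3.07 and 0.604%. Glutathione reductase, Gsr, was at a log2 fold change of 0.46. The genes of glutathione synthesis Gclc, Gclm and Gss were at 0.45, 0.18 and -0.18. Fatty aldehyde sources and carnitine synthesis, which bear on Aldh3a2 and Aldh9a1, had 5 tested genes each. In each list 0 were called by edgeR, 0 by DESeq2 and 0 by limma-voom, and 0 were at an unadjusted p under 0.05. Over all genes tested these shares were 0.812, 3.07, 0.604 and 11.8%, so 0 calls in lists this short say little about their genes. On the log2 fold change scale Hacl1 and Phyh, of fatty acid alpha-oxidation, were at -0.52 and 0.32, Far1, which makes fatty alcohols, at -0.37 and Sgpl1, which cleaves sphingosine phosphate, at 0.11. In carnitine synthesis Tmlhe, the first enzyme, was at -0.53, Bbox1, the last, at -0.19, and Shmt1 and Shmt2 at -0.24 and 0.22.

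Of 6891 protein-coding genes with a mean of at least 10 CPM, the pattern of Adh4 over the 4 libraries was most like that of Slc3a1, Cyp7b1 and Slc25a30, by the root mean square distance between centred log2(CPM + 0.5) values, whose median over all compared genes was 0.857. Slc3a1, an amino acid transporter subunit, lay at a distance of 0.114, with 28.2 and 29.3 CPM in PA, against 101 and 68.1 CPM in WT (log2 fold change -1.55, edgeR adjusted p = 0.0474). It was not called with limma-voom (adjusted p = 0.0524), with a mean of at least 1 CPM required (edgeR adjusted p = 0.0530) or with RSEM expected counts (edgeR adjusted p = 0.0546). Without WT replicate 1 its log2 fold change was -1.25. Cyp7b1, the oxysterol 7-alpha-hydroxylase of bile acid synthesis, lay at 0.162, with 7.69 and 8.11 CPM in PA, against 28.3 and 25.5 CPM in WT (log2 fold change -1.77, edgeR adjusted p = 0.0146). Slc25a30, a mitochondrial carrier, lay at 0.203, with 12.5 and 9.49 CPM in PA, against 39.6 and 21.1 CPM in WT (log2 fold change -1.47, edgeR adjusted p = 0.130). These genes were chosen over the same 4 libraries, so their lower values in PA follow from the choice.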

How the data were processed

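Polyadenylated RNA of 2 PA and 2 WT livers was sequenced, and groups follow the sample titles. The submitters' processing notes name STAR 2.7.6a, RSEM 1.3.3 and GRCm38. The annotation release is not given in the sources used here. The authors deposited raw STAR read counts per gene for each strand setting, and, per the file headers, RSEM expected counts, TPM and FPKM. FPKM values deposited by the authors were not used, and TPM served for levels between genes. STAR assigns a read to a gene only where it has a single alignment. Multiply aligned reads and other reads assigned to no gene made up 34.3 and 28.1% in PA and 29.6 and 31.1% in WT and were left out of library sizes. The strand column holding 96.98 and 96.96% of stranded counts in PA and 97.0 and 97.08% in WT was the main count. Of 55487 gene identifiers, 55227 matched GENCODE M21 of the same build.

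All genes were fitted together with edgeR 4.0.16 (R 4.3.3; TMM, filterByExpr, quasi-likelihood test, prior count 0.125, Benjamini-Hochberg adjusted p of 0.05), with genotype as the term. CPM use TMM-scaled library sizes. Standard errors are the log2 fold change over the square root of F. Expected counts were rounded to whole numbers. DESeq2 1.42.0, limma-voom (limma 3.58.1), median-ratio size factors, other low-count filters, unstranded and RSEM counts, a replicate block, fits without 1 library and, chosen after seeing the data, without mitochondrially encoded genes were alternatives. The counts of replicates were compared to look for a duplicate library, and none was found (chi-square per degree of freedom 135 for PA and 46.3 for WT). Precision is limited by 2 mice per group, and counting floors cover counting error only.

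The enzymes, gene lists and rules were chosen with earlier results of these data known. Named are the 10 enzymes, Pcca and Pccb, of each pathway list the called members and up to 4 by smallest p, the genes of the cluster with 2 neighbours on each side, and the 3 genes most like Adh4. Cell type lists are given as sums in place of their 3 most abundant genes, apart from genes named beside a value. Aldh3b2, Gm16559, the cell type markers named and the marker lists shown were picked for their bearing on a value.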

Additional observations from a re-analysis of the deposited data

Results flagged for a closer look

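Reads on the antisense strand, outside the main count, were above the WT level for Adh1 and Aldh2. For Adh1 they averaged 1.5 CPM in PA and 0.714 CPM in WT, from 32 and 53 reads in PA and 18 and 21 reads in WT, or 0.0579 and 0.0374% of its stranded reads in PA and 0.0333 and 0.0357% in WT. For Aldh2 they averaged 1.25 CPM in PA and 0.821 CPM in WT, from 32 and 38 reads in PA and 22 and 23 reads in WT, or 0.121 and 0.116% of its stranded reads in PA and 0.0746 and 0.0983% in WT. CPM of these antisense reads use the total gene counts without TMM scaling. These differences were not tested.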

How the results depend on the processing

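Adh4 was called in 10 of 13 alternatives and was lower in PA in all 13. It was not called with a mean of at least 1 CPM required (log2 fold change -1.64, edgeR adjusted p = 0.053), with RSEM expected counts (-1.62, 0.0514) or without WT replicate 1 (-1.39, 0.150), which left 0 of the 10 enzymes called lower; the cause was not tested. Leaving out each library gave -1.87 to -1.39 for Adh4, 0 to 1 enzymes called lower and 0 to 1 called higher. Over all genes, against 38 higher and 79 lower calls, DESeq2 gave 186 and 256, no filter on low counts 414 and 488, and leaving out each library 50 to 239 and 105 to 261. Differences between replicates 1 and 2 did not go together in PA and WT (correlation over genes -0.0992), which cannot show whether the mice were paired. With replicate numbers as a block the counts of calls were 126 and 192, with Adh4 at -1.63.

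The ratio of Adh4 to Adh7 moved to -1.30 with RSEM expected counts, -0.74 unstranded and -1.56 in TPM. Without each library the ratios ran over -2.98 to -1.63 for Adh1, -1.85 to -1.24 for Adh5 and -2.08 to -1.75 for Adh7. Of 662 single-gene values under alternatives, 610 kept direction and side of the threshold and 29 reversed, all in genes that were not called. Adh7 was -0.86 unstranded and -0.30 with RSEM, Adhfe1 0.0060 and 0.021, and Cat -0.0015 with limma-voom and -0.0095 without a filter. Without each library in turn the sign changed within -0.25 to 0.078 for Adh5, -0.39 to 0.16 for Aldh1a7, -0.27 to 0.43 for Aldh3a2, -0.16 to 0.0037 for Aldh9a1, -0.24 to 0.30 for Mttp, -0.18 to 0.076 for Trmt10a, -0.16 to 0.10 for Metap1, -0.098 to 0.48 for Eif4e, -0.14 to 0.11 for Adhfe1, -0.051 to 0.59 for Cyp2e1, -0.14 to 0.14 for Cat, -0.26 to 1.198 for Acss2, -0.42 to 0.037 for Gss, -0.19 to 0.36 for Sgpl1, -0.73 to 0.12 for Shmt1 and -0.58 to 0.11 for Bbox1. With 2 mice per group, differences of the size seen in most of these genes could not be told from the spread.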
